A study of Mus musculus with 12 samples.

Results

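The genes described here are 7 surface and cross-presentation genes of type 1 classical dendritic cells (cDC1): Cd8a, Cd8b1, Itgae, Cadm1, Wdfy4, Naaa and Snx22. They were taken by name, as 7 of the 22180 genes tested, and each was read from 1 probe set. Expression was measured on 12 Affymetrix arrays in 5 sorted populations of C57Bl/6 mice that carried a GFP reporter on 1 allele of Zbtb46 in every group and were studied at steady state. From bone marrow came common DC progenitors (CDP, n = 3), sorted as lineage-negative, CD135+ and CD115+ cells with intermediate CD117 and without CD11c or MHC class II. Marrow also gave pre-CD4 DCs (n = 2), which were CD117 low, CD115+ and CD11c+ without MHC class II, and pre-CD8 DCs (n = 2), which were CD117 intermediate, CD11c+ and Siglec H- with intermediate MHC class II. Spleen gave CD172a DCs (n = 2), gated on CD172a together with CD11c and MHC class II, and CD24 DCs (n = 3), gated on CD11c and CD24 in the absence of CD172a. No gate used any of the 7 gene products. Cells came from 8 to 10 littermates. Whether the arrays of a group were separate pools of mice is not stated, so p-values measure the spread between arrays, which may be technical, and the age of the mice was not given.

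cDC1 take up cell-associated antigen and present it on MHC class I to CD8 T cells, which is called cross-presentation. In mouse spleen they are commonly recognised by CD8α at the surface, and their relatives in other tissues by the integrin chain CD103, which does not exclude CD103 in spleen. They arise from the CDP through a committed marrow stage, the pre-CD8 or pre-cDC1, which leaves the marrow for the tissues. The other classical lineage, cDC2, carries CD172a and has the pre-CD4 DC as its marrow stage. The comparisons therefore ask which of the 7 genes were already raised at the pre-CD8 stage and which only in splenic CD24 DCs.

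The labelled identities were read first beside defining genes, not all of which followed the labels. Zbtb46, the classical DC factor that also holds the reporter, had a mean log2 value of 5.13 in CDPs and of 6.42 to 7.05 in the other 4 populations. Sirpa, which encodes CD172a, was at 9.35 in CD172a DCs and 5.85 in CD24 DCs, and the chemokine receptor gene Xcr1 of cDC1 was at 10.10 in CD24 DCs and 5.71 in CD172a DCs. Of the other cDC2 markers, Irf4, Clec4a4 and Cd4 were higher in CD172a than in CD24 DCs. Klf4, Cd209a, Mgl2, Clec10a and Esam were not called there. Of the progenitor markers, Cd34, Csf1r, Myb, Sox4 and Meis1 were lower in both spleen populations than in CDPs. Kit was higher, at 9.70 in CD172a DCs and 9.71 in CD24 DCs against 8.24 in CDPs, and Hlf was not called. The label of the CD24 sort names MHC class II as negative, yet H2-Ab1 RNA, which encodes a class II chain, was at 12.19 in those cells against 6.59 in CDPs and 11.92 in CD172a DCs.

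The genes differed in timing: 2 intracellular genes rose mostly in marrow and 3 surface genes mostly between marrow and spleen. Wdfy4 and Naaa rose at the pre-CD8 stage and held 77.3% and 83.5% of their whole log2 rise from CDP to CD24 DC there. Itgae, Cadm1 and Cd8a held 6.29%, 21.0% and 20.9% of theirs at that stage, and rose 9.35-, 14.9- and 25.7-fold between pre-CD8 and CD24 DCs. Leaving out 1 array moved these shares, to between -11.0% and 23.6% for Itgae, 6.79% and 35.2% for Cadm1 and 9.63% and 32.1% for Cd8a, and to between 64.8% and 89.8% for Wdfy4 and 72.1% and 94.9% for Naaa. Without pre-CD8 array 1 the log2 rises in spleen were 2.63 for Itgae, 3.19 for Cadm1 and 4.02 for Cd8a, and without array 2 they were 3.82, 4.59 and 5.35. On CDP arrays only Wdfy4 and Naaa exceeded the olfactory receptor level defined below, and the other genes lay under it. Cd8a and Itgae were also under it on pre-CD8 array 1. Marrow steps of genes so near the floor may be understated, which was not tested, so the shares may not be comparable between genes. The other 2 genes did not follow this split. Snx22, also intracellular, rose in both steps, with 51.9% of its rise in marrow. Cd8b1, also a surface gene, held 46.6% of its rise in marrow, or 30.7% to 60.4% with 1 array left out. Its values stayed low in every population.

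Upstream sequence was available in the RefSeq table (GRCm38.p6) for 4 of the 7 genes, and it is shown because these 4 include both early genes, 1 late gene and Snx22. Each run gives the 250 bases before the transcription start, 5′ to 3′ on the gene's strand. The windows are chr6:71373177-71373426 for Cd8a (plus strand), chr14:33185067-33185316 for Wdfy4, chr5:92278182-92278431 for Naaa and chr9:66069760-66070009 for Snx22 (all 3 on the minus strand). For Snx22 the most upstream of 2 listed starts was used. Capitals mark matches, on either strand, to 5 motifs that bear on DC transcription factors.
Cd8a: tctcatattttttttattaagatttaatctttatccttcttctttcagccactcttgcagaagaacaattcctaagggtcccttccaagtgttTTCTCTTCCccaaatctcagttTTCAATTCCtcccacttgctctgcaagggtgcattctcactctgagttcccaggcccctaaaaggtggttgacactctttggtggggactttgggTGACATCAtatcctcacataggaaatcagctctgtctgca
Wdfy4: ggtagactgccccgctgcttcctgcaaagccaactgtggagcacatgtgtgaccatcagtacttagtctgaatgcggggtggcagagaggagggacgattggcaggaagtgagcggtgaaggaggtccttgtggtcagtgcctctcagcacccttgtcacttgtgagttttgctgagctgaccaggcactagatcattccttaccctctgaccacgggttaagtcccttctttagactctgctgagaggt
Naaa: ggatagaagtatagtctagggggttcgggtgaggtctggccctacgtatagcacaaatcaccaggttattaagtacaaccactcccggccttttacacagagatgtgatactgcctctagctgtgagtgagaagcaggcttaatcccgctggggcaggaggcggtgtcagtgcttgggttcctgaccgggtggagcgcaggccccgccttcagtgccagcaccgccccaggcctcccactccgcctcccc
Snx22: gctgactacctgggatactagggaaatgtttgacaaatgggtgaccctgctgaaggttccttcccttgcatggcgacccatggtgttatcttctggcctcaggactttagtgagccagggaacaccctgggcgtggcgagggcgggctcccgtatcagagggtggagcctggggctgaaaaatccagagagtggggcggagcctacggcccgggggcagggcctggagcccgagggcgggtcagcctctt

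The motifs searched were AP-1 (TGANTCA), the CRE-like site (TGACNTCA), the ISRE core (GAAANNGAA), the ETS-IRF composite (GGAANNGAA) and the PU.1 core (GAGGAAG), of which the ISRE core and the composite can overlap. Cd8a, a late gene, held 1 CRE-like match, TGACATCA, whose first base is at position -40 from the start. It also held 2 composite matches on the opposite strand, TTCTCTTCC at -157 and TTCAATTCC at -135. The windows of Wdfy4, Naaa and Snx22 held none of these letters. Among 27025 promoter windows of the same length, 6.87% held the AP-1 motif, 7.59% the CRE-like site, 7.16% the ISRE core, 7.03% the composite and 10.4% the PU.1 core. The windows also differed in base composition, with a G and C content of 42.8% in Cd8a, 54.4% in Wdfy4, 59.2% in Naaa and 62% in Snx22. A match describes letters only and shows no binding.

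The surface genes come first. Cd8a encodes the CD8 α chain, which forms the αα homodimer of cDC1 and pairs with the β chain in T cells. The log2 values of Cd8a were 4.43, 4.59 and 4.29 in CDPs and 4.30 and 4.64 in pre-CD4 DCs. They were 5.01 and 6.34 in pre-CD8 DCs, 6.30 and 6.76 in CD172a DCs, and 10.55, 10.18 and 10.35 in CD24 DCs. The CD24 arrays thus stood far above all others, and the 2 pre-CD8 arrays lay above every CDP and pre-CD4 array but apart from each other.

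From CDP to pre-CD8, Cd8a differed by 1.24 ± 0.32 on the log2 scale (SE; limma, adjusted p = 0.0414). That call held in 7 of 19 alternative analyses and was lost without pre-CD8 array 2, where the difference was 0.57 with an adjusted p of 0.447, and without any 1 of the 3 CDP arrays (adjusted p = 0.0785 to 0.136). From pre-CD8 to CD24 DC it rose by 4.68 ± 0.32 (adjusted p = 3.14e-06), a call kept in all 19. Cd8a also rose in the other lineage, by 2.06 ± 0.35 from pre-CD4 to CD172a DCs (adjusted p = 0.00154). CD24 DCs still exceeded CD172a DCs by 3.83 ± 0.32, or 14.2-fold (adjusted p = 1.44e-05). In these bulk samples, a larger share of cells with a transcript and more transcript per cell cannot be told apart.

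Cd8b1 encodes the CD8 β chain, which marks conventional CD8 T cells, and lies next to Cd8a on chromosome 6. Its log2 values were 3.70, 4.60 and 4.61 in CDPs, 4.26 and 5.05 in pre-CD4 DCs, 5.10 and 4.73 in pre-CD8 DCs, 5.46 and 4.98 in CD172a DCs, and 6.05, 5.08 and 5.72 in CD24 DCs. The ranges of neighbouring populations overlapped throughout. Cd8b1 was higher in CD24 DCs than in CDPs by 1.31 ± 0.32 (adjusted p = 0.00885), but neither the marrow step (0.61 ± 0.35, adjusted p = 0.473) nor the spleen step (0.70 ± 0.35, adjusted p = 0.334) passed alone. CD24 and CD172a DCs differed in it by 0.39 ± 0.35 (adjusted p = 0.718), against 3.83 for its neighbour Cd8a.

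Because Cd8a and Cd8b1 are also T cell genes, 13 measured T cell markers were read beside them. Their summed linear level ran from 360 to 488 on CD24 arrays, from 476 to 509 on CD172a arrays and from 389 to 398 on pre-CD8 arrays. It was 349 and 350 on pre-CD4 arrays and 387 to 422 on CDP arrays. None of the 13 differed between CD24 DCs and pre-CD8 DCs or between CD24 and CD172a DCs by the same test. Of all genes, 2.65% and 3.21% were called higher in CD24 DCs there, so a count of none among 13 does not set these markers apart. Cd3e, Cd3g, Cd2, Themis, Zap70 and Trat1 exceeded the olfactory receptor level defined below on no array. Cd3d exceeded that level on both arrays of pre-CD4, pre-CD8 and CD172a DCs and on 1 CDP array. Bcl11b exceeded it on both CD172a arrays and 1 CD24 array, Ubash3a on all 3 CDP arrays, and Cd28 on those and 1 pre-CD4 array. Cd5, Cd6 and Lat exceeded it on all 3 CD24 arrays, and the mean of Cd5 was 5.21 in CDPs, 6.14 in pre-CD8 DCs, 6.93 in CD172a DCs and 6.49 in CD24 DCs. The part of T cell RNA in the values of Cd8a and Cd8b1 was not tested.

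Itgae encodes the αE integrin chain CD103, which pairs only with the β7 chain and binds E-cadherin. Log2 values of Itgae were 4.72, 4.90 and 4.50 in CDPs, 4.88 and 4.25 in pre-CD4 DCs, 4.33 and 5.52 in pre-CD8 DCs, 5.10 and 5.02 in CD172a DCs, and 8.46, 8.35 and 7.64 in CD24 DCs. Only the CD24 arrays left the common low range, and the order of the other 4 populations was within their spread. Itgae differed by 0.22 ± 0.34 from CDP to pre-CD8 (adjusted p = 0.866) and then rose by 3.23 ± 0.34 to CD24 DCs (adjusted p = 5.84e-05). CD24 DCs exceeded CD172a DCs 8.52-fold (3.09 ± 0.34, adjusted p = 0.000114).

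The gene of its partner chain ran the other way in time. Itgb7 had a mean of 7.08 in CDPs, 9.09 in pre-CD4 DCs, 9.02 in pre-CD8 DCs, 7.04 in CD172a DCs and 7.09 in CD24 DCs. It rose by 1.94 ± 0.27 from CDP to pre-CD8 (adjusted p = 0.000754) and fell by 1.93 ± 0.27 from pre-CD8 to CD24 DCs (adjusted p = 0.000527), the step in which Itgae rose. Of the 10 measured genes in the list of CD8 and CD103 partners, 2 rose and none fell from CDP to pre-CD8, where 2.29% of all genes rose. They were Itgb7 and the β2 integrin gene Itgb2 (2.57 ± 0.23). From pre-CD8 to CD24 DC, 1 of the 10 rose, the α4 integrin gene Itga4 (1.45 ± 0.28), where 2.65% of all genes rose. In that step 2 fell, Itgb7 and the αM gene Itgam (-2.09 ± 0.36). The share of all genes that fell was not computed, here or for the lists below, so counts of genes that fell are a description only.

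Cadm1 encodes an adhesion molecule of the immunoglobulin family that marks cDC1 in mouse and human and binds CRTAM on activated T cells. Its log2 values were 4.43, 5.12 and 4.96 in CDPs, 4.92 and 5.47 in pre-CD4 DCs, 5.17 and 6.57 in pre-CD8 DCs, 6.46 and 6.35 in CD172a DCs, and 9.67, 9.78 and 9.85 in CD24 DCs. The CD24 arrays were again set apart, while pre-CD8 overlapped pre-CD4 and CD172a. From CDP to pre-CD8 the difference of 1.03 ± 0.34 did not pass (adjusted p = 0.122), and it passed only without pre-CD8 array 1 (1.73, adjusted p = 0.00853). From pre-CD8 to CD24 DC Cadm1 rose by 3.89 ± 0.34 (adjusted p = 1.7e-05), and CD24 DCs exceeded CD172a DCs 10.3-fold (3.36 ± 0.34, adjusted p = 6.14e-05). CD172a DCs were above CDPs by 1.56 ± 0.34 (adjusted p = 0.00462).

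**Figure D1:**
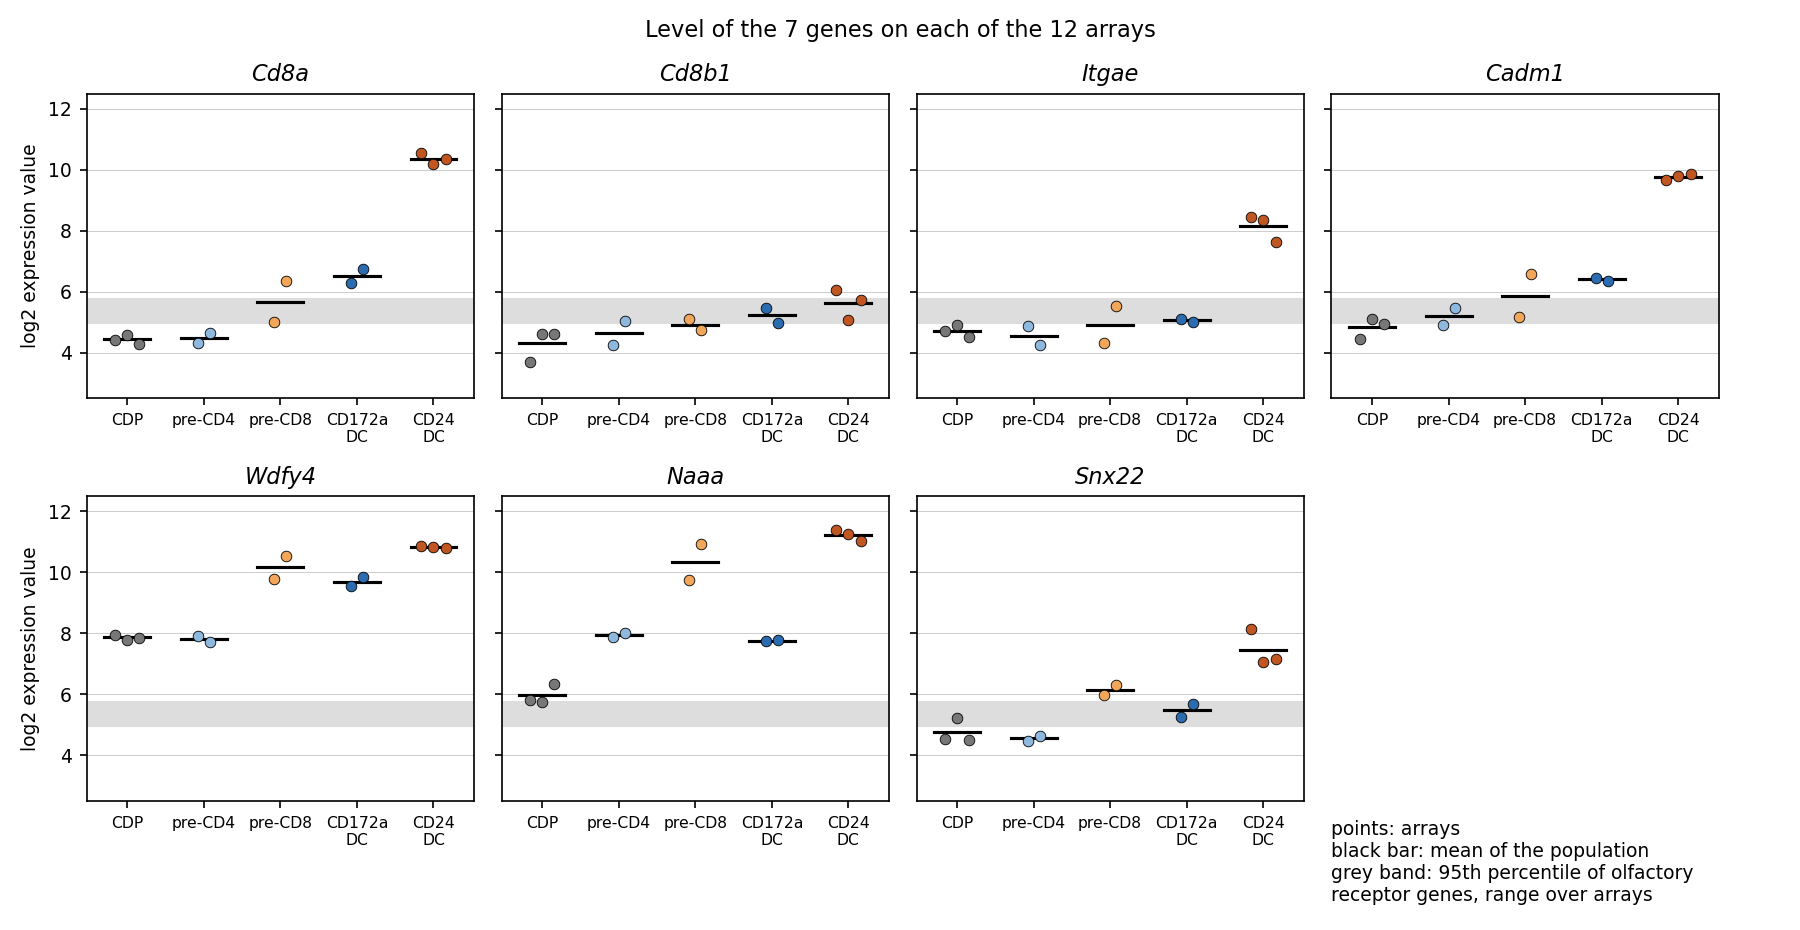
Log2 expression value (vertical axis) of the 7 genes on each of the 12 arrays, by population (horizontal axis). Points are arrays, black bars are population means and the grey band is the range over arrays of the 95th percentile of olfactory receptor genes (4.97 to 5.75). Cd8a, Itgae and Cadm1 stand clear of the other populations only on the 3 CD24 arrays. Wdfy4 and Naaa are higher on both pre-CD8 arrays than on every CDP and pre-CD4 array, but below every CD24 array. Pre-CD8 array 2 (10.54 for Wdfy4, 10.95 for Naaa) is nearer to the CD24 level than array 1 (9.79 and 9.75).

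A related adhesion gene marked the opposite lineage. Cadm3, which encodes another member of the CADM family, had a mean of 4.90 in CDPs, 7.11 in pre-CD4 DCs, 5.22 in pre-CD8 DCs, 7.93 in CD172a DCs and 5.20 in CD24 DCs. Where Cadm1 was higher in CD24 than in CD172a DCs, Cadm3 was lower (-2.73 ± 0.21, adjusted p = 6.41e-06). It was lower in pre-CD8 than in pre-CD4 DCs as well (-1.89 ± 0.23, adjusted p = 0.00117). Thus Cadm3 separated the lineages already in marrow, a comparison in which Cadm1 differed by 0.68 ± 0.37 (adjusted p = 1).

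From CDP to pre-CD8, 2.29% of all genes rose. Of the 11 measured genes of the CADM and nectin families and their ligands, 2 rose and none fell in that step. These were the nectin gene Nectin1 (1.34 ± 0.33) and Cd226, an activating receptor for nectin-like molecules (4.72 ± 0.27, adjusted p = 5.55e-07). Cd226 then fell by 3.62 ± 0.27 to CD24 DCs (adjusted p = 7.92e-06), from a mean of 8.82 in pre-CD8 to 5.19. Crtam, the gene of the Cadm1 ligand, did not exceed the olfactory receptor level on any array.

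**Figure D2:**
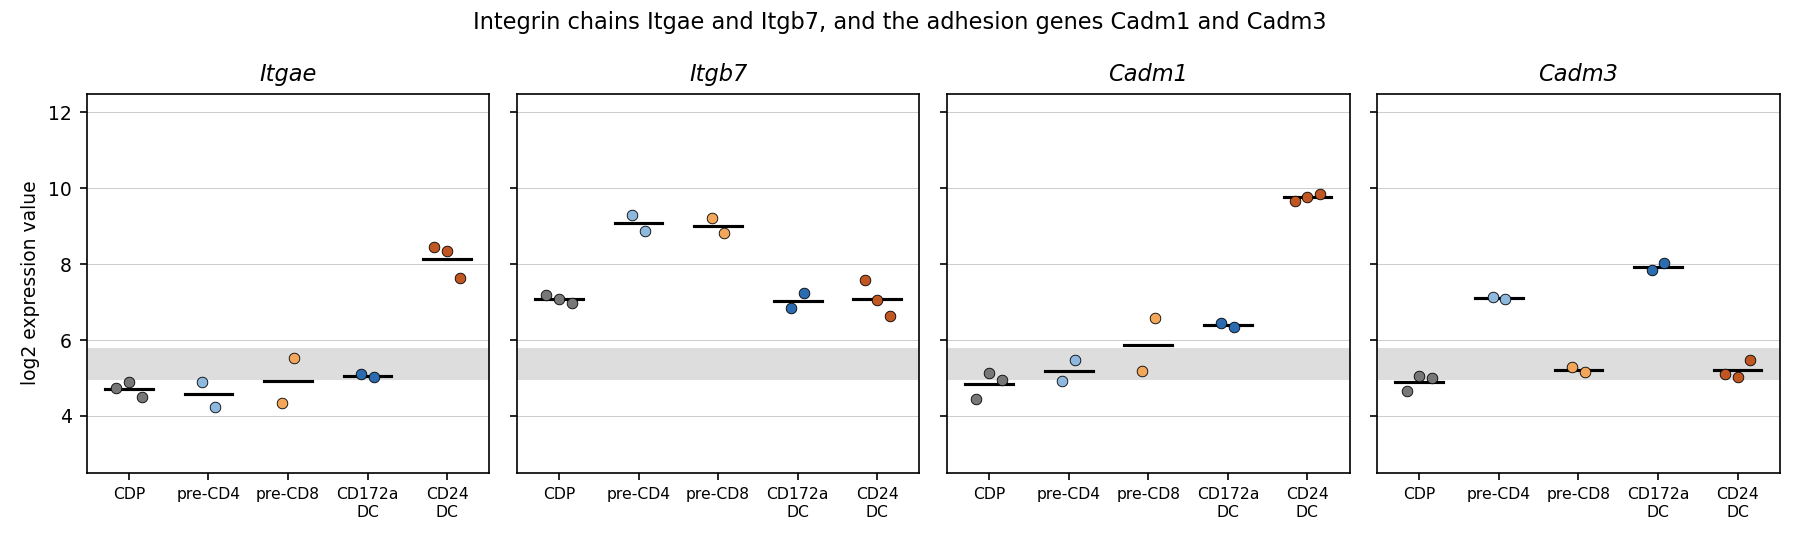
Log2 expression value (vertical axis) on each array, by population (horizontal axis), of the integrin chain genes Itgae and Itgb7 and the adhesion genes Cadm1 and Cadm3; points are arrays, black bars means and the grey band the olfactory receptor level. Itgb7 is high in the 2 marrow precursors and lower in CD24 DCs, where Itgae is high, and Cadm3 is high in pre-CD4 and CD172a DCs, where Cadm1 is below its CD24 level.

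The intracellular genes Wdfy4 and Naaa followed another course. Wdfy4 encodes a BEACH-domain protein that cDC1 need to cross-present cell-associated antigen. Its log2 values were 7.96, 7.79 and 7.87 in CDPs, 7.91 and 7.73 in pre-CD4 DCs, 9.79 and 10.54 in pre-CD8 DCs, 9.54 and 9.84 in CD172a DCs, and 10.88, 10.84 and 10.80 in CD24 DCs. CDPs and pre-CD4 DCs shared 1 level, and both pre-CD8 arrays were clear of it. Wdfy4 rose by 2.29 ± 0.22 from CDP to pre-CD8 (adjusted p = 5.08e-05). The further difference to CD24 DCs was 0.67 ± 0.22 (95% interval 0.19 to 1.15) and did not pass (adjusted p = 0.109). Without pre-CD8 array 2 that second step was 1.04 and passed (adjusted p = 0.0251), and without array 1 it was 0.30 (adjusted p = 0.866).

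In the other lineage Wdfy4 rose by 1.87 ± 0.24 from pre-CD4 to CD172a DCs (adjusted p = 0.00023). The excess of the cDC1 lineage was 2.34 ± 0.24 in marrow (pre-CD8 over pre-CD4, adjusted p = 0.000412) and 1.15 ± 0.22 in spleen (CD24 over CD172a DCs, adjusted p = 0.00756). The spleen call was lost without CD172a array 1 (adjusted p = 0.116) and with arrays set to a common median and interquartile range (0.0528). Lrrc18, a gene annotated within the span of Wdfy4 and singled out after its values were seen, had means of 6.07, 6.57, 8.55, 8.69 and 9.29 in CDP, pre-CD4, pre-CD8, CD172a and CD24 cells. It rose by 2.49 ± 0.28 from CDP to pre-CD8 (adjusted p = 0.000145), and the signal of overlapping genes cannot be told apart here.

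In the BEACH-domain family, 3 of 8 measured genes rose from CDP to pre-CD8, where 2.29% of all genes did, and none fell. They were Lyst (1.39 ± 0.23), whose loss causes the Chediak-Higashi phenotype, Lrba (1.34 ± 0.24), which protects CTLA4 from degradation, and Nsmaf (0.83 ± 0.22). None of the 8 changed from pre-CD8 to CD24 DC, where 2.65% of all genes rose, and a count of none among 8 does not set them apart. Between the spleen populations Lyst was lower in CD24 than in CD172a DCs (-1.35 ± 0.23), opposite to Wdfy4.

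Naaa encodes a lysosomal amidase that hydrolyses N-acylethanolamines such as palmitoylethanolamide. Its log2 values were 5.81, 5.76 and 6.35 in CDPs, 7.87 and 8.02 in pre-CD4 DCs, 9.75 and 10.95 in pre-CD8 DCs, 7.74 and 7.79 in CD172a DCs, and 11.38, 11.25 and 11.02 in CD24 DCs. Pre-CD4 and CD172a DCs lay close together between CDP and pre-CD8, and the CD24 arrays lay above both pre-CD8 arrays. Naaa rose by 4.38 ± 0.30 from CDP to pre-CD8 (adjusted p = 2.76e-06) and by 1.97 ± 0.30 from CDP to pre-CD4 (adjusted p = 0.00199). It was the only 1 of the 7 genes that rose from CDP to pre-CD4, a comparison in which 2.32% of all genes were called higher.

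The second step of Naaa, from pre-CD8 to CD24 DC, was 0.87 ± 0.30 (95% interval 0.22 to 1.52, adjusted p = 0.13). It passed without pre-CD8 array 2 (1.47, adjusted p = 0.009), and without array 1 it was 0.27 (adjusted p = 0.931). Pre-CD8 exceeded pre-CD4 DCs by 2.40 ± 0.33 (adjusted p = 0.00282), and CD24 exceeded CD172a DCs by 3.45 ± 0.30 (adjusted p = 1.91e-05). From pre-CD4 to CD172a DCs Naaa differed by -0.18 ± 0.33 (adjusted p = 0.764). Of the 9 measured genes of N-acylethanolamine metabolism, 1 rose from CDP to pre-CD8, the acid ceramidase gene Asah1 (0.80 ± 0.21). Of all genes, 2.29% rose in that step. There 2 of the 9 fell, Abhd4 (-1.38 ± 0.27), which acts in N-acylethanolamine synthesis, and Asah2 (-0.92 ± 0.21). That count has no share of all genes beside it.

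Snx22 encodes a sorting nexin, a family of phosphoinositide-binding proteins of endosomal membranes, and lies beside Snx1 on chromosome 9. Its log2 values were 4.53, 5.21 and 4.52 in CDPs, 4.47 and 4.64 in pre-CD4 DCs, 5.98 and 6.32 in pre-CD8 DCs, 5.26 and 5.70 in CD172a DCs, and 8.14, 7.05 and 7.16 in CD24 DCs. Both pre-CD8 arrays lay above every CDP, pre-CD4 and CD172a array and below every CD24 array. Snx22 rose by 1.40 ± 0.32 from CDP to pre-CD8 (adjusted p = 0.0236) and by 1.30 ± 0.32 from there to CD24 DC (adjusted p = 0.028). Without pre-CD8 array 1 or array 2 neither call was kept (adjusted p = 0.0764 and 0.197 for the first step, 0.289 and 0.0654 for the second), and the first was lost without CDP array 1 or 3 as well (0.0888 and 0.0914). CD24 exceeded CD172a DCs by 1.97 ± 0.32 (adjusted p = 0.00231).

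Among the 29 other sorting nexin genes, 1 rose from CDP to pre-CD8, Snx21 (1.41 ± 0.25), and none fell. A count of 1 in 29 is near the 2.29% of all genes that rose. From pre-CD8 to CD24 DC, where 2.65% of all genes rose, Snx24 rose (1.92 ± 0.23). In that step Snx18 (-0.96 ± 0.24), Snx32 (-0.93 ± 0.26) and Snx30 (-0.73 ± 0.18) fell, with no share of all genes that fell to set beside them. Snx24, like Snx22, was higher in CD24 than in CD172a DCs (1.65 ± 0.23).

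Counted over the 7 genes, 4 were called higher in pre-CD8 than in CDP (Cd8a, Wdfy4, Naaa and Snx22), where 2.29% of all genes were. In the spleen step 4 (Cd8a, Itgae, Cadm1 and Snx22) were called higher in CD24 DCs than in pre-CD8 DCs, where 2.65% of all genes were, and Cd8a and Snx22 are in both counts. All 7 were higher in CD24 DCs than in CDPs, against 8.32% of all genes. No gene of the 7 fell in any of these comparisons. The first count was 2, Wdfy4 and Naaa, without CDP array 1, without CDP array 3 and without pre-CD8 array 2. The 7 were named as cDC1 genes and chosen with earlier results of these data known. All counts of the 7 are therefore a description and no test of enrichment.

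**Figure D3:**
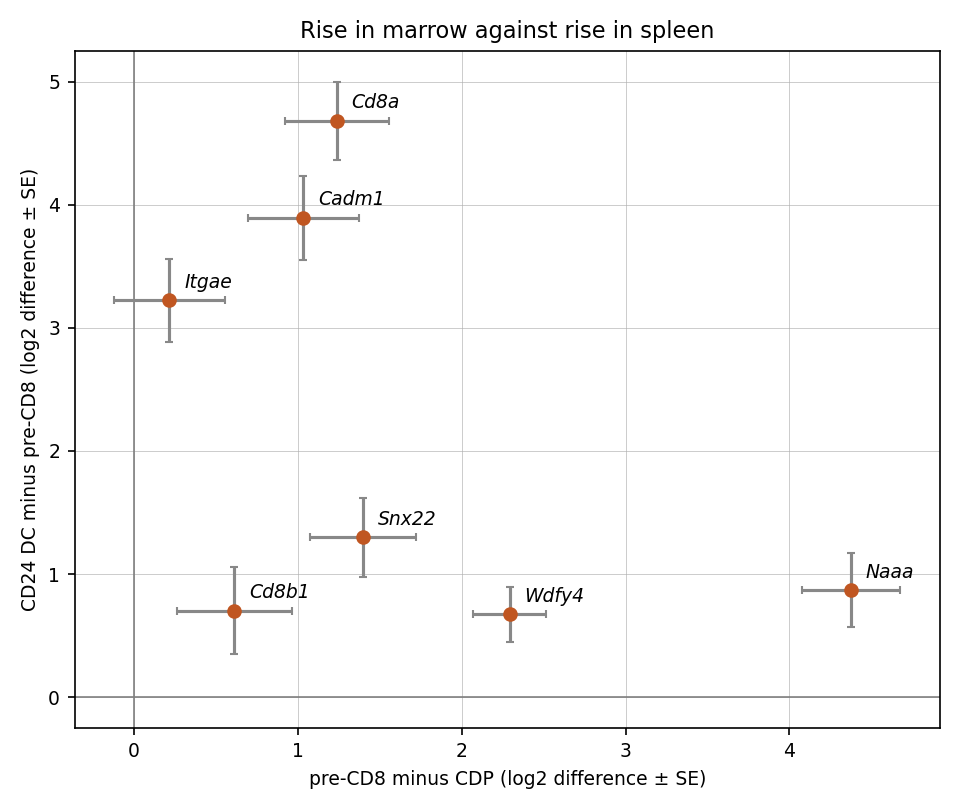
Log2 difference between pre-CD8 and CDP (horizontal axis) against that between CD24 DC and pre-CD8 (vertical axis) for the 7 genes, with bars of 1 SE. Wdfy4 (2.29 and 0.67) and Naaa (4.38 and 0.87) lie low and to the right, Cd8a (1.24 and 4.68), Cadm1 (1.03 and 3.89) and Itgae (0.22 and 3.23) high and to the left. The 2 axes share the pre-CD8 arrays.

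Across lineages, 2 genes were higher in pre-CD8 than in pre-CD4 DCs, Wdfy4 and Naaa, where 0.383% of all genes were called higher. The pre-CD4 arrays, which stand for the cDC2 lineage in marrow, had a summed linear level of 17 plasmacytoid DC markers of 6293 and 4314, above the 1355 to 3029 of all other arrays, and the part of these markers in the lineage differences was not tested. With only the 4 pre-CD8 and pre-CD4 arrays in the fit, neither Wdfy4 nor Naaa passed (adjusted p = 0.0674 and 0.139). In the main fit Snx22 differed by 1.59 ± 0.35 (adjusted p = 0.069) and Cd8a by 1.20 ± 0.35 (adjusted p = 0.24), and neither passed. In spleen, 6 of the 7, all but Cd8b1, were higher in CD24 than in CD172a DCs, against 3.21% of all genes.

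From pre-CD4 to CD172a DCs, 2 of the 7 rose, Cd8a and Wdfy4, against 4.7% of all genes, and Cadm1 differed by 1.21 ± 0.37 (adjusted p = 0.0506). Cadm1 passed in 9 of 19 alternatives of that comparison, with the replicate number as a block among them (adjusted p = 0.0181). Against CDPs, 4 were higher in CD172a DCs (Cd8a, Cadm1, Wdfy4 and Naaa), against 8.68% of all genes, and Cd8b1, Itgae and Snx22 did not pass (adjusted p = 0.0786, 0.476 and 0.124). The CD172a sort excluded no CD24+ cells by its label.

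Whether the gap between lineages was wider in spleen than in marrow was tested directly. It was wider for 3 of the 7 genes, where 0.5% of all genes were called in this direction. The difference of differences was 2.63 ± 0.47 for Cd8a (adjusted p = 0.0168), 2.73 ± 0.50 for Itgae (adjusted p = 0.0183) and 2.69 ± 0.51 for Cadm1 (adjusted p = 0.0211). It was -1.20 ± 0.33 for Wdfy4 (adjusted p = 0.13), 1.05 ± 0.45 for Naaa (adjusted p = 0.452), 0.38 ± 0.48 for Snx22 (adjusted p = 0.907) and 0.13 ± 0.52 for Cd8b1 (adjusted p = 0.981). Without CD172a array 1 the count was 0 in place of 3, and it was 1 without CD172a array 2, CD24 array 2, pre-CD4 array 1 or pre-CD4 array 2. Without pre-CD8 array 1, Cd8a alone was wider in spleen (1.96, adjusted p = 0.0327), Itgae (2.13, adjusted p = 0.0661) and Cadm1 (1.99, adjusted p = 0.0507) did not pass, and Wdfy4 passed in the other direction (-1.57, adjusted p = 0.0475). Tissue and stage of maturation change together in this design and cannot be told apart.

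**Figure D4:**
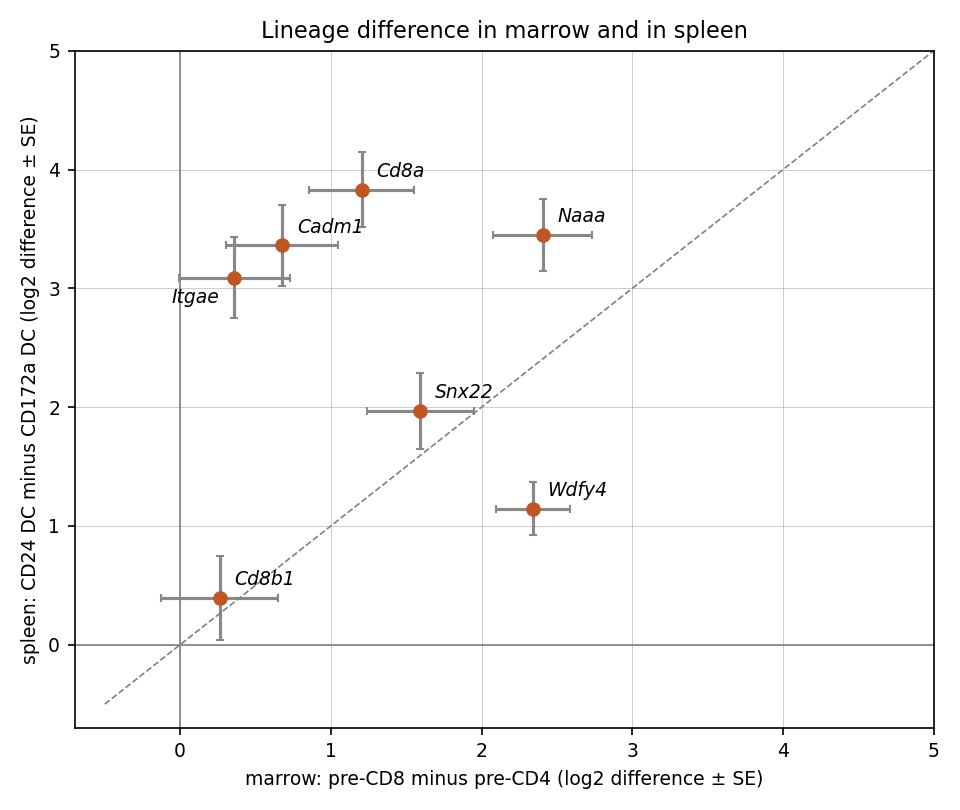
Log2 difference between the lineages in marrow, pre-CD8 minus pre-CD4 (horizontal axis), against that in spleen, CD24 minus CD172a DC (vertical axis), with bars of 1 SE and a dashed line of equal differences. Cd8a, Cadm1 and Itgae lie 2.63 to 2.73 log2 units above the line, and Wdfy4 lies 1.20 below it.

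No detection calls accompany the arrays, so "on" was described by setting each gene beside the 1088 olfactory receptor genes, which DCs are not known to use. A gene was above this level in a population when it exceeded the 95th percentile of those genes on every array of the population. Probe sets differ in brightness, so the level is a description and no test. By this measure Wdfy4 and Naaa were on in CDPs and in pre-CD4 DCs, 2 of the 7 in each, where 44.6% and 43.9% of all genes were. In pre-CD8 DCs 4 were on, Wdfy4, Naaa, Snx22 and Cadm1, against 43.6% of all genes, and Cadm1 was over the level by 0.019 on array 1.

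Cd8a and Itgae were above the level on 1 of the 2 pre-CD8 arrays. In CD172a DCs 4 were on, Cd8a, Cadm1, Wdfy4 and Naaa, against 38.2% of all genes. In CD24 DCs 6 were on, against 37.1%, and Cd8b1 passed on 2 of the 3 arrays. Itgae was the only gene of the 7 that was on in CD24 DCs and in no other population. With the 99th percentile in its place, the counts were 1 in CDPs, 2 in pre-CD8 DCs and 2 in CD172a DCs.

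The 2 pre-CD8 arrays differed from each other in a way that touches these results. For 6 of the 7 genes array 2 was higher than array 1, by 1.33 for Cd8a, 1.19 for Itgae, 1.40 for Cadm1, 0.74 for Wdfy4, 1.20 for Naaa and 0.34 for Snx22, and Cd8b1 was lower (-0.36). Of 23 other cDC1 lineage genes 20 were higher on array 2, against 51.3% of all genes. Of 7 cDC markers, 6 were higher on array 2, with a median difference from array 1 of 0.41. Of 7 progenitor markers, 2 were higher there, with a median difference of -0.474. The summed linear level of 10 neutrophil markers was 1866 on pre-CD8 array 1 and 12850 on array 2, with 9 of the 10 higher on array 2, and it was 9320 to 13718 on CDP arrays and 289 to 1829 on CD24 arrays. Of 14 monocyte and macrophage markers, 13 were higher on array 2. The summed level of 8 basophil, mast cell and eosinophil markers was 553 on array 1 and 1374 on array 2, with 7 of the 8 higher there, against 431 to 477 on CDP arrays. In this list Prg2 (2.46 ± 0.57, adjusted p = 0.0249), Cpa3 (1.77 ± 0.28, adjusted p = 0.00186) and Fcer1a (1.20 ± 0.31, adjusted p = 0.0402) were called higher in pre-CD8 DCs than in CDPs. The part of these markers in the values of the 7 genes was not tested.

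Other genes of the cDC1 lineage gave a reference for the 2 steps. Of 23 measured, 18 rose and none fell from CDP to pre-CD8, where 2.29% of all genes rose. This list too was chosen as cDC1 genes with earlier results of these data known, so its counts are a description. The median log2 difference of the 23 was 2.29, against 0.03 for all genes. The largest were in Tlr3, a receptor for double-stranded RNA (6.15 ± 0.31), Ifi205, an interferon-inducible gene (5.65 ± 0.25), and the cDC1 factors Id2 (4.96 ± 0.20) and Batf3 (4.55 ± 0.41). From pre-CD8 to CD24 DC, where 2.65% of all genes rose, 13 rose and 1, Itgb7, fell, with a median of 1.35 against 0.05. The largest rises there were in the surface receptor genes Havcr2 (3.69 ± 0.36), Xcr1 (3.14 ± 0.40) and Cd36 (3.00 ± 0.34) and in Hepacam2 (2.79 ± 0.33).

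The general machinery of cross-presentation was read in the same steps. Of 33 measured genes, 4 rose from CDP to pre-CD8, where 2.29% of all genes did, the thiol reductase gene Ifi30 (2.64 ± 0.38), Rab43, a small GTPase gene needed for cross-presentation by cDC1 (2.29 ± 0.23), Rab11a (1.17 ± 0.21) and Mpeg1 (1.09 ± 0.21). Rab27a fell (-1.42 ± 0.32). Rab43 also stands in the cDC1 list. From pre-CD8 to CD24 DC, where 2.65% of all genes rose, Rab43 rose (1.20 ± 0.23) and Rac2 (-1.36 ± 0.26) and Rab27a (-1.21 ± 0.32) fell. None was called between pre-CD8 and pre-CD4 DCs, where 0.383% of all genes were called higher. At so low a share, a count of none among 33 does not set these genes apart.

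Between the spleen populations, 13 of the 33 genes were higher in CD24 than in CD172a DCs, against 3.21% of all genes, and 1 was lower, with a median log2 difference of 0.78 against -0.01 for all genes. The pore-forming perforin-2 gene Mpeg1 (3.17 ± 0.21), the peptide transporter gene Tap2 (1.42 ± 0.29), the chaperone gene Calr (1.40 ± 0.20) and the translocon gene Sec61a1 (1.28 ± 0.21) led the higher ones. The lower one was Cybb, the NADPH oxidase subunit gene (-3.46 ± 0.60). Wdfy4 (1.15) and Naaa (3.45) were higher in the same comparison.

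The closest profiles over the 12 arrays were taken by Pearson r among 5164 genes whose population means spanned at least 1 log2 unit. They are a description, since all genes share the same arrays and the 5 population means set most of r. For Cd8a they were Cadm1 (0.991), Ltbp2 (0.988) and Ppfibp2 (0.987), and for Cadm1 they were Ltbp2 (0.992), Cd8a (0.991) and Gm10677 (0.988). For Itgae they were Gm10677 (0.980), Med7 (0.977) and Ctla4 (0.975). Thus the late genes Cd8a and Cadm1 were each among the nearest of the other, and Itgae shared Gm10677 with Cadm1.

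For Wdfy4 the closest were Fgl2 (0.978), the cDC1 factor gene Id2 (0.976) and Zfp366 (0.973). For Naaa they were Ifi205 (0.981), Plekha5 (0.971) and Ece1 (0.968), and for Snx22 they were Dbn1 (0.979), Gdpd5 (0.976) and Fam149a (0.976). Cd8b1 had the loosest neighbours, Slc36a3 (0.925), Prrt1 (0.907) and 5930403N24Rik (0.902). None of the nearest genes of Wdfy4 or Naaa was among those of Cd8a, Itgae or Cadm1. The lists are short and no base rate of overlap was computed, so this does not set the genes apart. Taken directly, the r of Wdfy4 was 0.866 with Cd8a, 0.762 with Itgae and 0.84 with Cadm1. That of Naaa was 0.801, 0.749 and 0.815 with the same genes. Wdfy4 and Naaa had an r of 0.889 with each other, and Cd8a, Itgae and Cadm1 had 0.959 to 0.991 among themselves.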

How the data were processed

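RNA of each sorted population was amplified with NuGEN Ovation Pico WTA, per the labels' protocols. The values used are log2 expression values per probe set, deposited by the authors, with 12 arrays not pooled; how they were normalized is not given in the sources read. They were used without further normalization (array means 5.281 to 5.339, medians 4.892 to 5.244). The spread of values differed between populations. Interquartile ranges were 2.67 to 2.86 on CDP, 2.60 to 2.74 on pre-CD4 and 2.48 to 2.70 on pre-CD8 arrays. On CD172a arrays they were 2.17 to 2.35, and on CD24 arrays 2.10 to 2.59. Precision is limited by the number of arrays. Of 35145 probe sets, 23521 had 1 gene symbol, 1814 several and 9810 none listed; for 1082 genes with several probe sets the one with the highest mean was used. limma 3.58.1 in R 4.3.3 (lmFit, eBayes) fitted 5 population means to all arrays, with two-sided p-values, Benjamini-Hochberg adjusted over 22180 genes, and a threshold of 0.05; the script was tested on simulated data. Changes are called "higher", "rose" or "fell" by that threshold. The share of all genes that fell was not computed, so counts of genes that fell stand without it. The text names the 7 genes, the 3 most correlated genes of each, and up to 4 called genes per direction of each list, those with the largest difference. Lists of lineage, machinery, family and marker genes were used; members and lists were chosen with earlier results of these data known. Alternatives were other scalings, probe set rules, a filter on dim genes, fewer groups in the fit, the replicate number as a block and each array left out.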

Additional observations from a re-analysis of the deposited data

Results flagged for a closer look

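For 3 of the 7 genes the gap between the cDC1 and cDC2 lineages differed between marrow and spleen by the test of that difference itself. The lineage difference in spleen minus that in marrow was 2.63 ± 0.47 log2 units for Cd8a, 2.73 ± 0.50 for Itgae and 2.69 ± 0.51 for Cadm1 (limma, adjusted p = 0.0168, 0.0183 and 0.0211). The call held in 16, 13 and 14 of 19 alternative analyses, and the highest adjusted p among them was 0.0942, 0.12 and 0.101.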

How the results depend on the processing

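The 7 calls between CD24 DC and CDP, those of Wdfy4 and Naaa between pre-CD8 and CDP, and those of Cd8a, Itgae and Cadm1 between CD24 DC and pre-CD8 held in all 19 alternatives. Of 1064 alternative values of single genes, 987 kept direction and call, 39 lost the call, 19 gained it and 19 changed sign. Fitting every probe set took the count for pre-CD8 over CDP from 4 to 2, and the cause was not tested. Fitting only the groups compared, which leaves fewer arrays in the fit, took pre-CD8 over pre-CD4 from 2 to 0. It took CD172a DC over pre-CD4 from 2 to 4, and the cause of these changes was not tested either. The 99th olfactory percentile gave 1 in CDP, 2 in pre-CD8 and 2 in CD172a DCs.

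With 1 array left out, the counts ran from 2 to 4 for pre-CD8 over CDP, 3 to 5 for CD24 DC over pre-CD8, 2 to 3 for pre-CD8 over pre-CD4, 5 to 6 for CD24 over CD172a DC, 2 to 4 for CD172a DC over pre-CD4 and 0 to 3 for the wider gap in spleen. CD24 DC over CDP stayed at 7 and pre-CD4 over CDP at 1.

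No value that changed sign was called. With 1 array left out, pre-CD8 minus CDP of Itgae ran from -0.3792 to 0.8119. Pre-CD8 minus pre-CD4 ran from -0.1319 to 0.6543 for Cd8b1, -0.2353 to 0.9558 for Itgae and -0.0224 to 1.3758 for Cadm1. Pre-CD4 minus CDP ran from -0.1348 to 0.1994 for Cd8a, -0.0419 to 0.7442 for Cd8b1, -0.4608 to 0.1730 for Itgae, -0.1385 to 0.0427 for Wdfy4 and -0.3147 to 0.0344 for Snx22. The gap difference of Cd8b1 ran from -0.2595 to 0.5266. Quantile normalization gave -0.0031 for Cd8a in pre-CD4 minus CDP and 0.11 for Naaa in CD172a DC minus pre-CD4, and a common median and interquartile range gave 0.0856 for that of Naaa and 0.0147 for Wdfy4 in pre-CD4 minus CDP.

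Array numbers in the labels were not read as pairing: deviations of 21 same-number pairs correlated at -0.16 to 0.42, and 13 were over 0.1, none of them with CD172a DC. With the replicate block, 54 of 56 values of single genes kept direction and call. Cd8a in pre-CD4 minus CDP became -0.0066, and Cadm1 in CD172a DC minus pre-CD4 passed (1.21, adjusted p = 0.0181).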
